A study of Mus musculus with 4 samples.

Results

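The genes described here encode splicing factors and spliceosome subunits, read in 4 mouse cerebellar tumors. Members were chosen by gene symbol: the SR proteins (Srsf, with Tra2a and Tra2b), the hnRNP proteins (Hnrnp), the snRNP proteins (Snrp), the U2 and 3′ splice site factors (Sf3a, Sf3b, U2af), the Prpf proteins, and the Ptbp, Nova, Rbfox and Elavl families of splicing regulators. The rule found 74 genes, read by 210 of the 24679 probe sets that carry a single gene symbol. Of these genes, 8 were set apart as neural regulators (Ptbp2, Nova1, Nova2, Rbfox1, Rbfox2, Elavl2, Elavl3 and Elavl4) and the other 66 were treated as general factors, among them Ptbp1, Ptbp3 and Elavl1, the broadly expressed paralogs of neural regulators. Rbfox2 is itself expressed in many tissues and is counted with the neural regulators because its family is.

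All 4 tumors carry the label Chd7-het, come from mice of a mixed CD1xC57BL/6 background and were hybridised to 1 array each. They keep their sample numbers here as tumors 1, 2, 4 and 5. The labels give no tumor-driving allele, no Cre, and neither age nor sex, and neither normal tissue nor tumors with another Chd7 genotype were among the samples, so no effect of Chd7 could be measured. Each tumor could only be set against the other 3. A p-value then measures the distance of that tumor from the mean of the other 3. The spread it is set against joins that between the other 3 with the spread of genes of similar signal.

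Pre-mRNA splicing removes introns in a large complex assembled from snRNPs, particles of a small nuclear RNA and proteins, that recognise the splice sites and carry out the reaction. SR proteins mostly bind exons and favour their inclusion, while many hnRNP proteins bind introns or exons and oppose it. In neurons a further layer of regulators acts: the fall of Ptbp1 and the rise of Ptbp2 accompany neuronal differentiation, and Nova, Rbfox and neuronal Elavl proteins set the exon choices of synaptic and cytoskeletal genes.

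The values are log2 signals of a probe set, a group of short oligonucleotides that reads part of a transcript, and the brightest probe set stands for its gene. A gene counted as measured when its mean signal reached 5.88, the median of all probe sets. Signals under a floor of 5.12 were raised to it before any difference was taken, while the signals printed here are as deposited. Measured in this sense were 73 members, all of them above the floor in every tumor, out of 8492 genes tested. The exception was Srsf12, an SR protein that represses splicing, which read 5.04, 4.09, 4.31 and 3.96 in tumors 1, 2, 4 and 5 and lay below the floor in each. The share of probe sets above the floor was 59.1% to 61.3% per array, and the brightest 1% began at 11.23, 11.16, 11.47 and 11.48, so bright probe sets as a whole read higher on the arrays of tumors 4 and 5. Markers of granule cell progenitors, from which SHH medulloblastoma arises, were measured for 12 of 12 genes listed. In bulk tissue, fewer cells of a type and less RNA per cell cannot be told apart.

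Across the neural regulators, tumor 1 lay above the other tumors for most members, and across the general factors it lay below. The median difference between tumor 1 and the mean of the other 3 was 0.40 on the log2 scale over the 8 neural regulators, of which 7 were higher and 1 lower. Over the 65 measured general factors it was -0.18, with 5 higher and 60 lower. Over all 8492 genes tested it was -0.04, and 56.3% were lower. Over the 4609 brighter genes past a stricter filter it was -0.06, and 61.7% were lower. The median level of those brighter genes was 8.72, where that of the general factors was 10.15. They are therefore not matched to the general factors in brightness. The differences describe the classes, without a test.

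**Figure D1:**
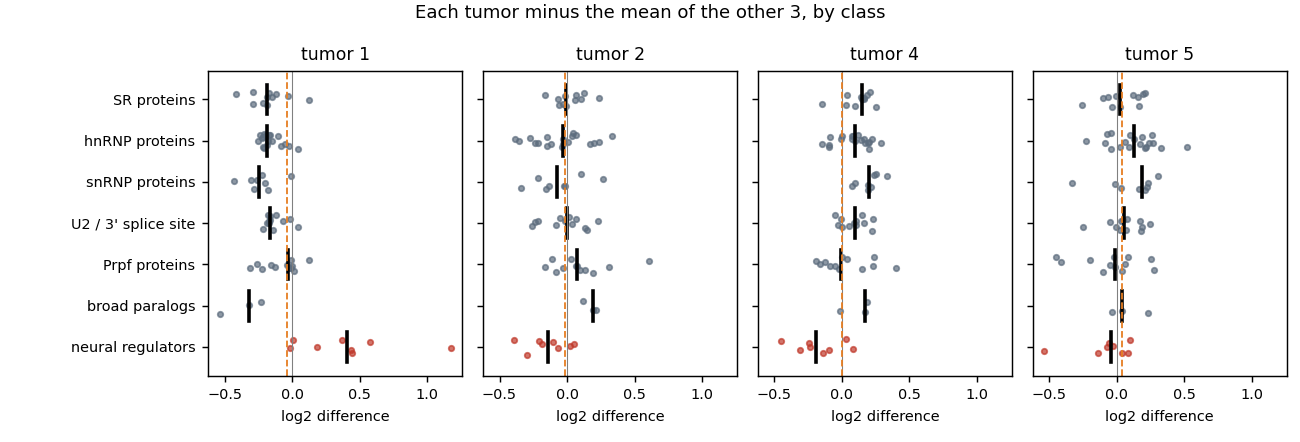
Difference between each tumor and the mean of the other 3 (log2, horizontal axis) for every measured member, a point each, by class. Black bars are class medians, the dashed line is the median of all genes tested and the thin line is no difference. In tumor 1 the neural regulators have a median of 0.40 and the medians of all general classes lie below zero.

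Rbfox2, an RNA-binding protein that recognises a short element beside many alternative exons, was the member farthest apart. Its brightest probe set read 8.05, 7.03, 6.83 and 6.77 in tumors 1, 2, 4 and 5 (mean 7.17 ± 0.60, SD, n = 4). Tumor 1 lay above each of the others, which spanned a narrow range (6.88 ± 0.14, SD, n = 3). The difference of 1.17 (SE 0.20), or 2.26-fold, passed the test at an adjusted p of 0.0398 (limma, Benjamini-Hochberg over all genes). A gene was called at an adjusted p under 0.05 and a difference of at least 2-fold. By this measure 1 of 73 members was called higher in tumor 1 and 0 were called lower, where 1.06% of all genes tested were called higher and 0.188% lower. The call was lost under 3 of the alternative settings, including a fit without tumor 4 (adjusted p = 0.13), and a stricter signal filter removed the gene. In the other settings the adjusted p ran from 0.0106 to 0.0464 (limma). It also rests on 1 probe set. The probe set 1434938_at, dimmer and below the signal filter, read 5.62, 5.46, 5.71 and 5.61, a difference of 0.03 for tumor 1, and the remaining pair for Rbfox2 lay under the floor in all tumors.

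Rbfox1, the paralog enriched in neurons and muscle, moved to the same side without passing the test. It read 8.42, 7.83, 7.76 and 7.94 (7.99 ± 0.30, SD, n = 4), with tumor 1 above the others by 0.58 (SE 0.17; adjusted p = 0.205, limma). Its dimmer probe sets gave differences of 0.87 and 0.58, so all 3 that passed the filter placed tumor 1 highest.

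The Elavl genes encode proteins that bind AU-rich and U-rich RNA, and Elavl2, Elavl3 and Elavl4 are the neuronal ones. Elavl4 read 9.27, 8.71, 8.75 and 9.00 (8.93 ± 0.26, SD, n = 4), and tumor 1 lay 0.44 above the rest (SE 0.17; adjusted p = 0.369, limma). Its other probe sets differed by 0.57 and 0.55. Elavl3 read 8.70, 8.44, 8.24 and 8.32 (8.42 ± 0.20, SD, n = 4), a difference of 0.37 (adjusted p = 0.461, limma), and its other probe sets differed by 0.57 and 0.22. Elavl2 read 10.48, 10.29, 10.27 and 10.32 (10.34 ± 0.09, SD, n = 4), with tumor 1 again highest but by only 0.18 (adjusted p = 0.776, limma). Of its other probe sets, a pair differed by 0.15 each, and the dimmest, 1454454_at, by -0.18 at 6.40, 6.76, 6.29 and 6.70. None of these differences passed the test, although tumor 1 was above each other tumor in the brightest probe set of all 3 genes.

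Nova proteins bind short elements in neuronal transcripts and set the inclusion of nearby exons. Nova2 was dim and had a single probe set, at 6.36, 5.74, 6.06 and 5.98 (6.03 ± 0.26, SD, n = 4). Tumor 1 lay 0.44 above the rest (adjusted p = 0.555, limma) and tumor 2 lowest. Nova1 read 8.55, 8.59, 8.45 and 8.61 (8.55 ± 0.07, SD, n = 4), and tumor 1 lay inside the range of the others. Ptbp2, the neural polypyrimidine tract binding protein, read 10.63, 10.57, 10.70 and 10.67 (10.64 ± 0.06, SD, n = 4), also with tumor 1 inside the range, at a difference of -0.01 (adjusted p = 0.991, limma). A dimmer Ptbp2 probe set, 1423471_at, read 6.82, 5.45, 6.22 and 6.39, so it placed tumor 1 highest and tumor 2 lowest.

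**Figure D2:**
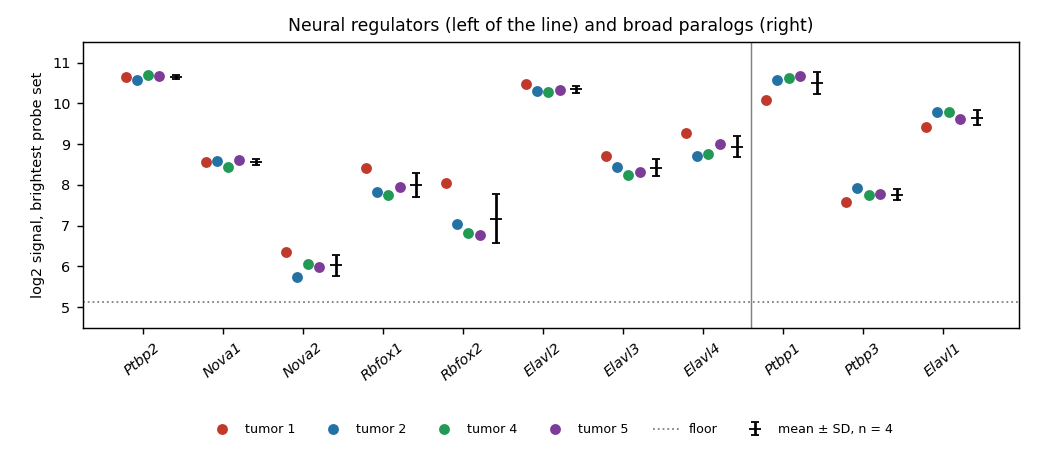
Log2 signal of the brightest probe set (vertical axis) of each neural regulator, left of the line, and each broad paralog, right of it, with 1 point per tumor and the mean ± SD of 4 tumors beside them; the dotted line is the floor of 5.12. Tumor 1 is highest for 6 of 8 neural regulators, by most for Rbfox2 at 8.05, and lowest for all 3 broad paralogs.

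In their brightest probe sets the broad paralogs gave the opposite order. Ptbp1, which represses many neuronal exons in non-neuronal and progenitor cells, read 10.09, 10.58, 10.63 and 10.67 (10.49 ± 0.27, SD, n = 4). Tumor 1 stood alone at the bottom, 0.54 below the others on the log2 scale or 1.45-fold lower, while those lay within a narrow band (10.63 ± 0.04, SD, n = 3). The difference did not pass over all genes (adjusted p = 0.240, limma). The dim Ptbp1 probe set 1458284_at read 6.26, 6.26, 6.50 and 6.37, with tumor 2 as low as tumor 1 and a difference of -0.12. Elavl1, the ubiquitous HuR protein that stabilises AU-rich transcripts, read 9.41, 9.79, 9.78 and 9.62 (9.65 ± 0.18, SD, n = 4), lowest in tumor 1 (adjusted p = 0.527, limma). Ptbp3 read 7.58, 7.92, 7.75 and 7.79 (7.76 ± 0.14, SD, n = 4), also lowest in tumor 1 (adjusted p = 0.721, limma).

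To set broad paralogs beside neural ones, in pairs where the tumor 1 value of the brightest probe set differed (lowest for Ptbp1 and Elavl1, inside the range for Ptbp2, highest for Elavl3), the 250 bases before the annotated start of each are shown here, as RefSeq gives them on GRCm38.p6. Capitals mark the E-box letters CANNTG, the GC-box letters GGGCGG or the TATA-box letters TATAAA, searched on both strands with overlapping matches counted. The window of Ptbp1 lies at chr10:79854182-79854431 on the plus strand, and those of Ptbp2 (chr3:119783389-119783638), Elavl1 (chr8:4325101-4325350) and Elavl3 (chr9:22052024-22052273) on the minus strand.
Ptbp1: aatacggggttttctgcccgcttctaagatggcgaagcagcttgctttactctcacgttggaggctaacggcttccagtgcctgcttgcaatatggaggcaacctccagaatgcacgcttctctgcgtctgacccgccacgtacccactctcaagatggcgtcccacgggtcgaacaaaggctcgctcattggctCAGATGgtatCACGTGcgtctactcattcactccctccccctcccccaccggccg
Ptbp2: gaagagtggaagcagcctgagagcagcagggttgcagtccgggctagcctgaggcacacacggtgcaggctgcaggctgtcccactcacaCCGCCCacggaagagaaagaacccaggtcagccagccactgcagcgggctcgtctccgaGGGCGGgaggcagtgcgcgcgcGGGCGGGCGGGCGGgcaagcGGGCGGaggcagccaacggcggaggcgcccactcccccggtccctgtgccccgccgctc
Elavl1: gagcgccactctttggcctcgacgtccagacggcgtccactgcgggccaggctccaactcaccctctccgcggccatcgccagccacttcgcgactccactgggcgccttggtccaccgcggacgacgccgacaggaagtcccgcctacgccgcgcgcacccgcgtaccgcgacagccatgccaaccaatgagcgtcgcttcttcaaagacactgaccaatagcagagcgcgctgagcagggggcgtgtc
Elavl3: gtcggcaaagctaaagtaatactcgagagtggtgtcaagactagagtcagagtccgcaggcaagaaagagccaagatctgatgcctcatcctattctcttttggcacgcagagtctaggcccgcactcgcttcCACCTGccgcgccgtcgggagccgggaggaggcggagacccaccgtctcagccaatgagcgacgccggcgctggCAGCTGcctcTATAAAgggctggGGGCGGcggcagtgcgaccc

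The Ptbp1 window held 2 E-box matches and 0 GC-box matches at 57.6% GC, and that of Ptbp2 held 0 and 6 at 72.4% GC. The Elavl1 window held none of the 3 motifs at 67.6% GC, while that of Elavl3 held 2 E-box matches, 1 GC-box match and 1 TATA-box match at 61.6% GC. Of all 32851 RefSeq windows of this length, 66.2% held CANNTG, 32.7% GGGCGG and 12.4% TATAAA. The 91 windows of the 65 members with an entry held them in 54.9%, 61.5% and 5.5%, at a median GC of 59.6% against 52.4% over all windows. These matches describe letters only.

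The general factors were lower in tumor 1 class by class, by small amounts. The median difference was -0.18 for the SR proteins (10 of 11 measured lower), -0.18 for the hnRNP proteins (18 of 19), -0.24 for the snRNP proteins (8 of 8), -0.16 for the U2 and 3′ splice site factors (11 of 12) and -0.03 for the Prpf proteins (10 of 12). Tumor 1 was the lowest of the 4 for 42 of 65 general factors, or 64.6%, where it was lowest for 31.3% of all genes tested. It was the highest for 2 of them, where the share over all genes was 23.4%. Among the 4609 brighter genes past a stricter filter, tumor 1 was lowest for 34.4% and highest for 19.2%. For the neural regulators the counts were 6 of 8 highest and 0 lowest. No general factor was called in tumor 1 by limma, and 3 had an unadjusted p under 0.05: Ptbp1, Snrpb2 and Srsf5. Of all 8492 genes tested, 947 had an unadjusted p under 0.05 in tumor 1 (limma), a larger share than 3 of 65.

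The lower reading of the general factors depends in size on how arrays are brought to a common scale. With quantile normalization, which gives every array the same distribution, the median over the general factors in tumor 1 was -0.09, with 50 lower and 15 higher. Over all genes it was -0.04 under that setting, and 57.0% were lower. The neural regulators kept a median of 0.37 there, with 8 of 8 higher. Among SR proteins, Srsf5 read 9.96, 10.32, 10.39 and 10.43 (10.27 ± 0.21, SD, n = 4), lowest in tumor 1 by 0.42 on the log2 scale (adjusted p = 0.368, limma). Srsf3, which couples splicing to mRNA export, read 10.69, 10.86, 11.03 and 11.06, and Srsf6 10.57, 10.77, 10.91 and 10.91. In the brightest probe set of both, tumor 1 was lowest and tumors 4 and 5 highest. Every other probe set of Srsf6 placed tumor 2 highest. The dimmest of Srsf3, 1438215_at, did so too, at 7.21, 7.65, 7.04 and 6.90. The remaining ones of Srsf3 placed tumor 1 lowest and tumor 5 highest. Srsf4 varied least in its class, at 9.73, 9.84, 9.87 and 9.93 (SD 0.08).

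Among hnRNP proteins, the genes with the widest spread separated tumors 1 and 2 from tumors 4 and 5 in their brightest probe sets. Hnrnpc, which binds U-rich tracts in introns, read 11.07, 10.94, 11.29 and 11.62 (11.23 ± 0.30, SD, n = 4), highest in tumor 5. Hnrnpab read 11.45, 11.37, 11.85 and 11.89 (11.64 ± 0.27, SD, n = 4). Hnrnpf, which binds G-rich tracts, read 11.14, 11.13, 11.46 and 11.51 (11.31 ± 0.20, SD, n = 4). A dimmer probe set of Hnrnpab, 1448144_at, read 9.56, 9.90, 9.79 and 9.56, and 1437099_x_at of Hnrnpf read 9.97, 10.12, 9.98 and 9.96. Both were highest in tumor 2. The other probe sets of these genes past the filter split as the brightest did. The brightest probe sets lie where tumors 4 and 5 read brighter as whole arrays, and the part of that difference in their values was not tested. Hnrnpul1, by contrast, read 9.44, 9.51, 9.48 and 9.50 (SD 0.03), a spread narrower than any other hnRNP gene.

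Most snRNP proteins showed the same split in their brightest probe sets, Snrpb only narrowly, while Snrpa1 and Snrpf did not. Snrpg and Snrpe, which belong to the ring of Sm proteins around the spliceosomal RNAs, read 11.15, 11.12, 11.63 and 11.61 and 11.43, 11.47, 11.82 and 11.80. In both, tumors 4 and 5 read higher than tumors 1 and 2. Both lie where the arrays of tumors 4 and 5 read brighter as a whole, and the part of that was not tested. How many of all genes split this way was not counted. Snrpb2, the U2 snRNP protein B″, read 9.60, 9.91, 10.10 and 10.08 (9.92 ± 0.23, SD, n = 4), lowest in tumor 1 by 0.43 (SE 0.16; adjusted p = 0.348, limma). It too was higher in tumors 4 and 5 than in tumors 1 and 2. Its partner Snrpa1, the U2 protein A′, read 9.65, 9.89, 9.89 and 9.84 and was again lowest in tumor 1. A dimmer Snrpa1 probe set, 1417353_x_at, read 8.84, 8.86, 9.59 and 9.59 and did split, while 1417352_s_at was highest in tumor 2. Snrpf, another Sm protein, read 10.39, 10.60, 10.46 and 10.15, highest in tumor 2 and lowest in tumor 5. It falls outside the rule for named genes and was chosen after its values were seen.

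The U2 and 3′ splice site factors were the steadiest class. Sf3b5, a small subunit of the SF3B complex that holds the branch site, read 9.46, 9.44, 9.77 and 9.73. U2af1, which recognises the AG at the end of the intron, read 10.30, 10.16, 10.46 and 10.48, and both genes were higher in tumors 4 and 5. Sf3b2, another SF3B subunit, read 10.37, 10.50, 10.31 and 10.15 in its brightest probe set, lowest in tumor 5. Its other 4 probe sets past the filter did not show this: 1433461_at read 9.43, 9.52, 9.71 and 9.74, highest in tumor 5, and all 4 placed tumor 1 lowest. Sf3a1 read 8.12, 8.32, 8.17 and 8.23 (SD 0.08).

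The Prpf proteins lay closest to the other tumors in tumor 1, and their widest-varying genes stood out in different tumors. Prpf39, a U1-associated factor, read 7.80, 8.26, 7.66 and 7.50 (7.80 ± 0.33, SD, n = 4), highest in tumor 2 by 0.61 (adjusted p = 0.795, limma). Prpf40b, another U1-associated factor, was lowest in tumor 5 at 6.27, 6.34, 6.58 and 5.95. Prpf31, a protein of the U4/U6.U5 particle, read 7.02, 7.32, 7.43 and 7.24 in its brightest probe set and was lowest in tumor 1. Its dimmer probe set 1453005_at read 6.77, 6.87, 6.62 and 7.01, lowest in tumor 4 and highest in tumor 5. Prpf6 of the U4/U6.U5 particle differed least of all members, at 8.43, 8.41, 8.43 and 8.46 (SD 0.02).

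**Figure D3:**
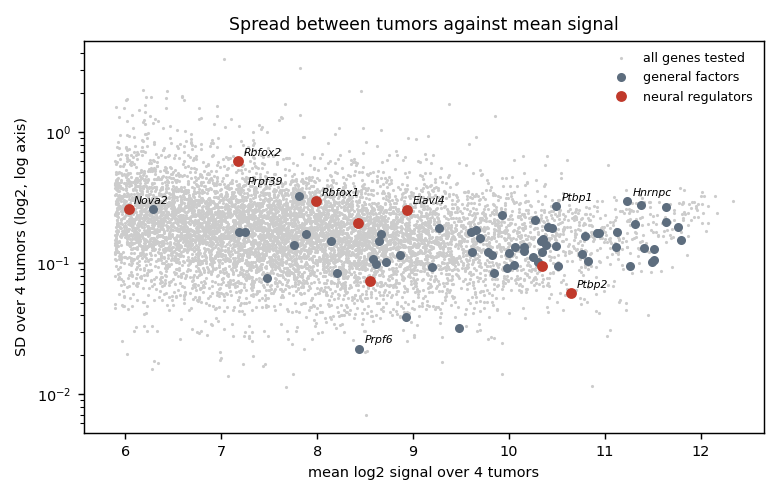
SD over the 4 tumors (log2, logarithmic axis) against the mean log2 signal of each gene tested, with general factors and neural regulators marked. Most general factors lie low in the cloud, at a median SD of 0.134, and Rbfox2 has the largest SD of the measured members, at 0.598.

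Members differed in how much they varied. The median SD over the 4 tumors was 0.134 for the general factors and 0.229 for the neural regulators, against 0.172 over all genes tested. Of the general factors, 46 of 65 lay under that median, and of the neural regulators 3 of 8. Among the 4609 brighter genes past a stricter filter, which are still dimmer than the general factors in median level, the median SD was 0.159. By class it ran from 0.112 for the U2 and 3′ splice site factors to 0.187 for the snRNP proteins. The range over the 4 tumors stayed under 1 for 72 of 73 measured members, Rbfox2 being the exception at 1.28.

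In the other tumors no member was called by limma, and 1, 0 and 1 members had an unadjusted p under 0.05 in tumors 2, 4 and 5, which were Prpf39 in tumor 2 and Hnrnpc in tumor 5. Of all genes tested, 0.0% were called in tumor 2, 0.0% in tumor 4 and 0.0118% in tumor 5, where 491, 48 and 299 genes had an unadjusted p under 0.05. The 4 comparisons share tumors, so a low tumor 1 raises the differences of the rest. In tumor 4 the median of the general factors was 0.11, with 48 of 65 higher, and 26 were the highest of the 4, where 19.1% of all genes were. Only 2 were the lowest, against 17.3% of all genes. Among the 4609 brighter genes past the stricter filter, tumor 4 was highest for 23.1% and lowest for 13.5%. In tumor 5 the median was 0.06, with 19 highest and 8 lowest, where the shares over all genes were 30.9% and 22.0%. In tumor 2 it was -0.01, with 18 highest and 13 lowest, where the shares were 26.4% and 29.1%. With quantile normalization 48 of the 65 general factors were higher in tumor 2, 36 in tumor 4 and 33 in tumor 5. The counts lower were 17, 29 and 32, where 52.5%, 46.4% and 44.1% of all genes were lower. The order of these 3 tumors therefore depends on the scaling. The neural regulators had medians of -0.14, -0.19 and -0.04 in tumors 2, 4 and 5. Without tumor 1 these were -0.01, -0.09 and 0.06, and with the mean of the probe sets that of tumor 5 was 0.03, so its sign is not settled. Without tumor 1 the medians of the general factors were -0.07, 0.07 and 0.02.

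Other genes of the pathway were read from lists of names outside the members. Of 63 further spliceosome genes, 52 were measured, and 44 of these were lower in tumor 1, at a median of -0.12. None was called by limma and 1 had an unadjusted p under 0.05, where 947 of all 8492 genes tested did. The lowest were Lsm8 at -0.53, Isy1 at -0.43, Lsm3 at -0.35 and Dhx16 at -0.33, where Lsm8 and Lsm3 belong to the ring around U6 RNA. Ddx23 and Dhx38 lay at the floor in all tumors. Of 40 other broad regulators, 37 were measured, 25 were lower in tumor 1 and none was called by limma. Of the 37, 4 had an unadjusted p under 0.05 (limma), a share close to that over all genes. The largest differences there were -0.81 for Taf15, -0.66 for Mbnl3, 0.65 for Mbnl2 and -0.48 for Khsrp.

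Of 10 further neural regulators, 7 were measured and 6 of these were higher in tumor 1, at a median of 0.17. Celf4, a neuronal RNA-binding protein, was the only one called. It read 9.70, 8.33, 8.21 and 7.76, with tumor 1 above the others by 1.60 or 3.02-fold (adjusted p = 0.021, limma). Srrm4, the activator of neuronal microexons, read 7.33, 6.87, 6.44 and 6.37 without passing (adjusted p = 0.264, limma). Rbfox3, the third Rbfox gene and the NeuN antigen, read 10.86, 10.57, 10.61 and 10.66. Khdrbs3 was lower in tumor 1, at -0.31, and Khdrbs2 lay at the floor in every tumor.

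Markers of other cell types moved with tumor 1. Sums are of linear signals over every listed marker on the table, whether or not it passed the filter. The 11 markers of mature neurons summed to 7710, 2861, 3763 and 3660 in tumors 1, 2, 4 and 5, and all 11 were highest in tumor 1. Among markers of mature granule cells, Gabra6 read 9.33 in tumor 1 and 3.43, 5.14 and 4.01 in the others, which lay at or close to the floor, while Grin2c and Slc17a7 lay at the floor in all tumors. The 8 markers of Purkinje and inhibitory neurons summed to 3895, 302, 563 and 286, with all 8 highest in tumor 1 and Gad2 at the floor throughout. The 7 of oligodendrocytes summed to 5339, 778, 1615 and 746, with all 7 highest in tumor 1. Of the measured markers of these 3 lists, 5 of 8, 4 of 6 and 2 of 5 passed the filter only through their signal in tumor 1, so no count of calls is given for them. No measured member of the splicing classes, by contrast, depended on tumor 1 to pass. The 8 of astrocytes summed to 4716, 3862, 3926 and 3629. Markers of granule progenitors summed to 14666, 16835, 18431 and 18679, with 10 of 12 lower in tumor 1, and those of dividing cells to 10915, 14540, 15333 and 15103, with 13 of 13 lower. Of 10 microglial markers 8 were lower in tumor 1 and 1 was called lower, at sums of 3737, 4578, 6618 and 4989. Rbfox3 is also among the markers of mature neurons. The part of these cell types in the readings of the neural regulators and of the general factors was not tested.

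Several probe sets read 54 of the members, and they did not always agree. Of 46 members with more than 1 probe set past the filter, Elavl1 was the only one whose probe sets differed by 1 or more in the tumor 1 difference, where 24 of 3309 genes did so. Its brightest placed tumor 1 lowest, and so did 1431037_a_at at 8.93, 9.21, 9.30 and 9.36. The probe set 1452858_at read 7.77, 7.44, 7.26 and 7.35, with tumor 1 highest. The dim probe set 1428653_x_at read 6.59, 6.58, 5.24 and 5.23, with tumors 1 and 2 above tumors 4 and 5. The lower reading of Elavl1 in tumor 1 therefore holds for its brighter pair of probe sets and turns in the dimmer pair.

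**Figure D4:**
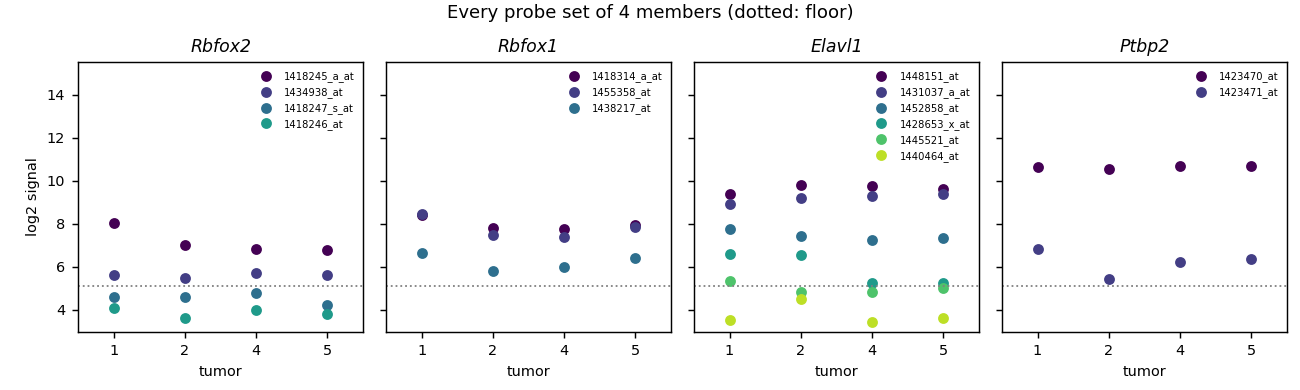
Log2 signal (vertical axis) of every probe set of Rbfox2, Rbfox1, Elavl1 and Ptbp2 in the 4 tumors, 1 colour per probe set; the dotted line is the floor. For Rbfox2 only the brightest probe set is high in tumor 1, while all 3 of Rbfox1 are.

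A further pattern, chosen after its values were seen, concerned the dimmer probe sets in tumor 2. Of 99 dimmer probe sets of the members, 19, from 12 genes, lay at least 0.5 further up in tumor 2 than the brightest of their gene did. Over all genes 4.37% of the dimmer probe sets did so. With quantile normalization it was 11 of 99, where the share over all genes was 3.59%. In tumors 1, 4 and 5 the member counts were 4, 0 and 0 of 99, where the shares over all genes were 2.63%, 0.8% and 2.57%. In tumor 5, 10 of 99 lay further down by that much, where 5.09% did over all genes. With quantile normalization the latter count was 5 of 99, where 3.71% did over all genes. Probe sets of 1 gene share its transcripts, so these are not separate observations.

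Genes for hnRNP proteins held 12 of these 19 probe sets. Several hnRNP genes also have many probe sets past the filter, with 7 for Hnrnpdl and 5 each for Hnrnpab and Hnrnpu. The share of hnRNP genes in the 99 dimmer probe sets was not counted, so no concentration is read from the 12. Hnrnpu, which binds nuclear RNA and chromatin, read 11.38, 11.54, 11.45 and 11.68 in its brightest probe set, with no tumor far from the rest. Its probe set 1434390_at read 6.94, 7.87, 6.56 and 6.20, and 1434391_at read 7.34, 8.23, 7.14 and 7.13, both highest in tumor 2. Hnrnpa2b1 read 11.64, 11.55, 11.88 and 11.95 in the brightest and 9.06, 10.09, 9.25 and 9.05 in 1433830_at. For Srsf6, 1416720_at read 8.82, 9.56, 9.02 and 8.81, highest in tumor 2, where the brightest placed tumor 1 lowest and tumor 2 next. Which transcript forms these probe sets read was not examined.

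**Figure D5:**
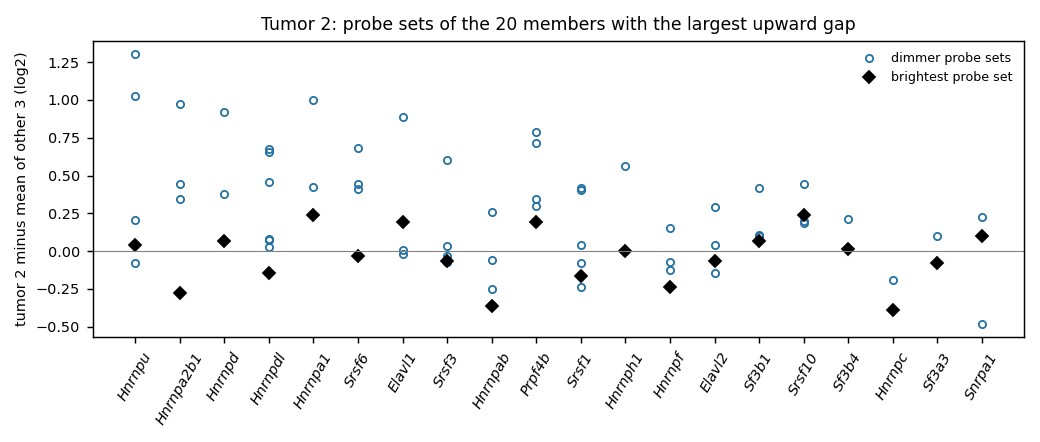
Tumor 2 minus the mean of the other 3 (log2, vertical axis) for the dimmer probe sets (open circles) and the brightest (diamonds) of the 20 members with the largest upward gap. For Hnrnpu the dimmer ones reach 1.30 and the brightest lies at 0.04.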

How the data were processed

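Total RNA of 4 tumors was hybridised to 1 Affymetrix mouse expression array each. The authors deposited log2 signals. MAS5, named in the submitters' processing notes, summarises each array alone and does not align distributions. Its version is not given in the sources used here. Gene names came from the annotation of the platform, and probe sets with several symbols or none named no gene. The floor was the median over arrays of the 40th percentile. Probe sets were kept at a mean at or above the median, and the brightest stood for its gene. Tumors were compared, 1 against the mean of the other 3, in limma 3.58.1 under R 4.3.3 (lmFit, eBayes with an intensity trend, Benjamini-Hochberg over all genes tested). The lone tumor is assumed to vary like the others. The steps were tested on simulated data. Precision is limited by having 4 arrays, and nothing in the labels says whether tumors shared a litter.

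The members and lists were chosen with earlier results of these data known. Values by tumor are given for the neural regulators, the broad paralogs, any member called, the 3 members of each general class with the largest SD and the 1 with the smallest, and members whose probe sets disagreed by 1 or more on the log2 scale. Of other pathway genes, those called and up to 4 per list with the largest tumor 1 difference are named. Alternatives changed the floor, the filter, the choice of probe set, the normalization, the trend and the tumors included.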

Additional observations from a re-analysis of the deposited data

Results flagged for a closer look

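Of 73 measured members, 1 had a tumor whose gap to the nearest other took up more of the range than Dixon's 95% critical value for 4 samples. Ptbp1 read 10.0887 in tumor 1 against 10.58 to 10.67 in the others, a ratio of 0.851. By chance about 1 in 20 groups is marked this way.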

How the results depend on the processing

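The class medians kept their direction or moved by less than the SD of the 4 tumor medians of the class. Tumor 1 widens that SD, so the margin is loose. Within it, the general factors went from -0.01 to 0.07 in tumor 2 with quantile normalization. In tumor 1 they went from -0.18 to -0.09 under the same setting. The neural regulators in tumor 5 went from -0.04 to 0.06 without tumor 1. For the named genes, 349 of 367 values under an alternative kept their direction and side of the threshold, 3 did not pass any more and 15 changed sign over 8 genes. The 1 member called in tumor 1 became 0 with the floor at the 50th percentile (Rbfox2 adjusted p = 0.0973), with no filter (0.168) and with the filter at the 75th percentile, which removes Rbfox2, and ran from 0 to 1 when a tumor was left out (0 without tumor 4, limma). Genes called in tumor 1 numbered 106, then 24 with the 75th percentile filter and 96 to 213 when a tumor was left out. In tumor 2 the count of 0 became 1 with no filter, 1 with the 75th percentile filter and 0 to 30 with a tumor left out. In tumor 4 it became 6 with no filter and 0 to 9 with a tumor left out. In tumor 5 the count of 1 became 0 with no floor, 7 with no filter, 0 with the 75th percentile filter, 2 with quantile normalization and 1 to 50 with a tumor left out. Ptbp1 reached an adjusted p of 0.021 (limma) without tumor 2, at under 2-fold. The highest of these counts in tumors 2, 4 and 5 came without tumor 1.

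The tumor 1 difference changed sign for genes near no difference or with probe sets that disagree. With the mean of the probe sets it was 0.16 for Elavl1, 0.39 for Ptbp2, 0.036 for Prpf6 and -0.16 for Sf3b2, and without _x_at and _s_at probe sets -0.23 for Sf3b2. With quantile normalization it was 0.0026 for Prpf6, 0.091 for Ptbp2 and 0.024 for U2af1. With a tumor left out it ran from -0.048 to 0.034 for Nova1, -0.16 to 0.15 for Prpf39, -0.19 to 0.13 for Prpf40b, -0.020 to 0.0072 for Prpf6, -0.055 to 0.013 for Ptbp2 and -0.041 to 0.14 for Sf3b2. The cause was not tested. No paired analysis was possible because the labels give a single group.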
